A study of Mus musculus with 4 samples.

Results

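The genes described here were lower in miR-26a knockout cells given a synthetic miR-26a than in both knockout cultures without it. They were selected on the deposited normalized read counts. The log2 ratio of the mimic library, with 1 added to each value, had to be at most -0.4 against the knockout culture given a negative-control oligonucleotide and at most -0.4 against the untransfected knockout culture. Both reference libraries had to hold at least 50 normalized reads, a minimum called the floor below. The table held 16416 genes, of which 11321 reached the floor and 194, or 1.71%, met both ratios. The rule also left out Hox genes, predicted and clone names and 5 named genes, which removed 15 and left 179 genes.

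MicroRNAs are short RNAs that guide Argonaute proteins to messenger RNAs. Pairing runs mainly through the seed near the 5' end of the guide, most often with a site in the 3' untranslated region (3' UTR), and it speeds decay of the message and limits its translation. miR-26a is a broadly expressed microRNA of mesenchymal tissue, and the published targets include the lysyl-oxidase relative Loxl2, which crosslinks collagen.

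The cells were labelled as synovial fibroblasts grown out of the shoulder joint capsule of mice 1 week after immobilization of the joint, used at passage 2. There were 4 libraries, 1 for each group. The groups were untransfected wild-type cells of C57BL6/J mice, untransfected miR-26a -/- cells, miR-26a -/- cells transfected with 10 nM Silencer Negative Control siRNA, and miR-26a -/- cells transfected with 10 nM miR-26a mimic. Both transfections ran for 24 h with Lipofectamine RNAiMax, and the number of animals behind each culture is not given in the sources used here. No group had a replicate, so no test between conditions was possible, and all differences below describe these libraries. Mature miR-26a is not in the gene table used here, which therefore does not check the knockout or the transfection.

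Library totals lay between 17598763 and 19392655 estimated counts. The fibroblast markers Col1a1, Col1a2, Col3a1, Dcn, Lum, Pdgfra, Pdgfrb and Thy1 were all detected. Their summed TPM, a level per transcript length, was 16764 in wild type, 7194 in the knockout, 7135 with the negative control and 7844 with the mimic library. The 11 macrophage markers, led by Lyz2, summed to 21867, 32136, 31059 and 31005 TPM in the same order, above the fibroblast markers in every library. Lyz2 alone held 14913, 18991, 17286 and 17807 TPM of these, and in wild type the order of the sums rests on it. The lists also differ in length. The 3 knockout libraries were close to each other in both sums, and the wild-type library stood apart from them. No marker of either list was among the 179 genes.

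The 2 strands of the mimic are shown with the other mouse microRNA of the same seed, because the sites in the genes below pair with this seed. The strands are those given in the labels, the miR-26b sequence is from RefSeq (GRCm38.p6), and capitals mark bases 2 to 8.
Mimic sense strand: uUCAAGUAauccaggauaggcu
Mimic antisense strand: cCUAUUCUugguuccuugcacg
miR-26b-5p: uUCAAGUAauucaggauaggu
The sense strand was identical to mature miR-26a-5p in RefSeq. The antisense strand differed from miR-26a-1-3p by A14C, counted from the 5' end with the RefSeq base first. Mouse miR-26a is encoded by Mir26a-1 on chromosome 9 and Mir26a-2 on chromosome 10, and miR-26b by Mir26b on chromosome 1.

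An annotated 3' UTR (GENCODE M21, GRCm38) was found for 178 of the 179 genes, the exception being Ms4a4a, and the longest one of each gene was searched on its own strand. A 7-base site was the complement of guide bases 2 to 8, TACTTGA. An 8-base site was the same followed by A, TACTTGAA. The 12 genes with an 8-base site and the lowest mean of both ratios were Slc22a23, Gmds, Acat2, Txndc15, Stradb, Rgs4, Frk, Rnf149, Srp19, Frat2, Abcg3 and Slc25a16. The sites of 11 of them are shown 5' to 3' on the transcript strand, with the 8 paired bases in capitals, to let the shared core be compared with its surroundings.
Slc22a23: cagccagccctgttgccagtacTACTTGAA
Gmds: agtttgaatcacatactcatttTACTTGAA
Acat2: ccacctttctgtgcctcctgaaTACTTGAA
Txndc15: attgactgttgttgctttttaaTACTTGAA
Stradb: ttaggtacaaatgacaaatctaTACTTGAA
Rgs4: gagcttttcaaggcacgtgaaaTACTTGAA
Frk: gccatgttaaatgacttgattgTACTTGAA
Rnf149: ttactctagggcagagtttgtaTACTTGAA
Frat2: gaatcgggagggcttctaacaaTACTTGAA
Abcg3: tctgctttgggagtaacaacaaTACTTGAA
Slc25a16: accttaattgtgaaggaaacatTACTTGAA

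In GRCm38 coordinates the capitals of these sites lie at chr13:34182031-34182038 (Slc22a23, minus strand), chr13:31819667-31819674 (Gmds, minus), chr17:12943458-12943465 (Acat2, minus), chr13:55726083-55726090 (Txndc15, plus) and chr1:58994525-58994532 (Stradb, plus). Those of Rgs4 and Rnf149 lie on the minus strand at chr1:169742219-169742226 and chr1:39552382-39552389. The others lie at chr10:34609119-34609126 (Frk, plus), chr19:41846906-41846913 (Frat2, minus), chr5:104936478-104936485 (Abcg3, minus) and chr10:62944597-62944604 (Slc25a16, plus). All are in 3' UTRs, and several sit close to the stop codon. The first base of the site is base 83 of the 3' UTR in Rnf149, base 89 in Stradb, base 100 in Abcg3 and base 126 in Slc25a16.

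The lowered genes carried miR-26a sites more often than other genes at the floor, and sequence took no part in their selection; the shares are descriptions without a test. A 7-base site was present in 61 of 178 genes, or 34.3%, against 1275 of 11019 genes at the floor that were not lowered, or 11.6%. An 8-base site was present in 42 genes, or 23.6%, against 4.88%. In the mirror set of 111 genes that were higher in the mimic by 0.4 against both references, 106 had a 3' UTR, and 7.55% of those held a 7-base site and 2.83% an 8-base site. The mirrored rule took 0.980% of the 11321 genes at the floor.

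When each gene was placed in the class of its longest site, the class with the widest excess in the lowered genes was that of 8-base sites. A 7-base site without the final A was the longest match in 10.7% of the lowered genes against 6.69% of the genes not lowered. Guide bases 2 to 7 followed by A, the site ACTTGAA, was the longest match in 16.3% against 10.6%. A 6-base match alone was less common in the lowered genes, at 8.43% against 15.4%, and no match at all was found in 73 of the 178, or 41.0%, against 62.5%.

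**Figure D1:**
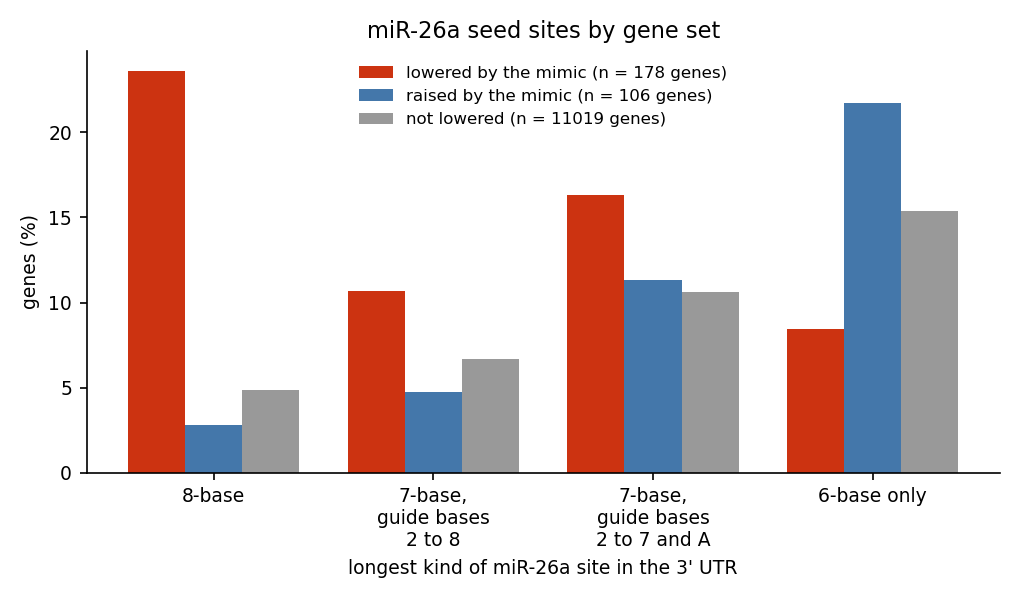
Percent of genes (vertical axis) by the longest kind of miR-26a site in the 3' UTR, for the 178 lowered genes, 106 raised genes and 11019 genes not lowered (which include the raised ones). The 8-base class holds 23.6%, 2.83% and 4.88% of the 3 sets.

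Other seeds, searched the same way, served as comparators. The site of the mimic's antisense strand, AGAATAG, was in 10.7% of the lowered genes and 10.1% of those not lowered. For miR-21a-5p (ATAAGCT) the shares were 6.74% and 8.19%, for let-7a-5p (CTACCTC) 9.55% and 10.9%, for miR-29a-3p (TGGTGCT) 14% and 16.4%, and for miR-17-5p (GCACTTT) 13.5% and 15.4%. For miR-101a-3p (GTACTGT) the share was higher in the lowered genes, 16.3% against 12%. Between lowered and not lowered genes the gap for the miR-26a seed was the widest of these 7 seeds. In the 106 raised genes the miR-17-5p site was in 38.7%, the miR-29a-3p site in 26.4% and the let-7a-5p site in 20.8%, each above its share in genes not lowered. The raised genes had the longest 3' UTRs of the 3 sets, with a median of 2031 bases.

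The 3' UTRs of the lowered genes were shorter than those of the genes not lowered, with medians of 1041 and 1265 bases, and had a similar content of A and T, with medians of 56.2% and 55.6%. Longer 3' UTRs hold any given site more often, so the shares were also taken within 3 equally filled ranges of length. Among 3' UTRs of up to 764 bases a 7-base site was in 17 of 69 lowered genes, or 24.6%, against 2.24%. Between that length and 1923 bases it was in 34.4% against 8.69%, and among longer ones in 47.9% against 23.7%. The lowered genes had the higher share in each range.

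The sites themselves also differed in kind and place. The 61 genes held 76 sites of 7 bases, of which 48, or 63.2%, were followed by A, against 38.9% of 1462 sites in genes not lowered. The median site began 381 bases after the stop codon in the lowered genes and 1295 bases after it in the others. Within 400 bases of either end of the 3' UTR lay 63.2% of sites against 36.5%. These positions depend on 3' UTR length and were not compared within ranges of it. Of the genes with a site, 17 of 61 lowered genes and 82 of 1275 others had a 3' UTR of up to 764 bases. The 30 bases on each side had a median A and T content of 62.5% and 61.7%. Uninterrupted pairing with guide bases 13 to 16 was found for 3 of the 76 sites, in Slc22a23, Vbp1 and Map2, against 9 of 1462.

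Of the 61 genes 14 held more than 1 site, or 23.0%, against 12% of the genes with a site that were not lowered. Zdhhc20, a palmitoyltransferase, held 3. The others were Slc22a23, Stradb, Slc25a16, Fbxl19, Snn, Nhs, Cdk8, Pak3, Abhd18, Ttc13, Nab1, Nus1 and Ulk1, with 2 each. In Nhs the 2 sites were neighbours, at bases 1424 and 1434 of the 3' UTR.

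The share of genes with a site was highest at the lowest ratios and changed little above -0.1. Taking the larger of both ratios for each gene at the floor, a 7-base site was in 42.9% of 49 genes at or below -0.6, in 42.1% of 38 genes from there to -0.5 and in 27.9% of 104 genes from -0.5 to -0.4. In the next bins, outside the selection, the share was 23.9% of 213 genes from -0.4 to -0.3 and 19.5% of 507 genes from -0.3 to -0.2. It was 13.6% of 1055 genes from -0.2 to -0.1, 11.7% of 1948 genes from there to 0 and 11.4% of 2577 genes from 0 to 0.1. It was 9.05% of 2111 genes from 0.1 to 0.2, and 10.3% of 2608 genes above 0.2. The 8-base share was 28.6%, 34.2% and 17.3% in the 3 lowest bins and 3.32% and 3.53% in the last 2.

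**Figure D2:**
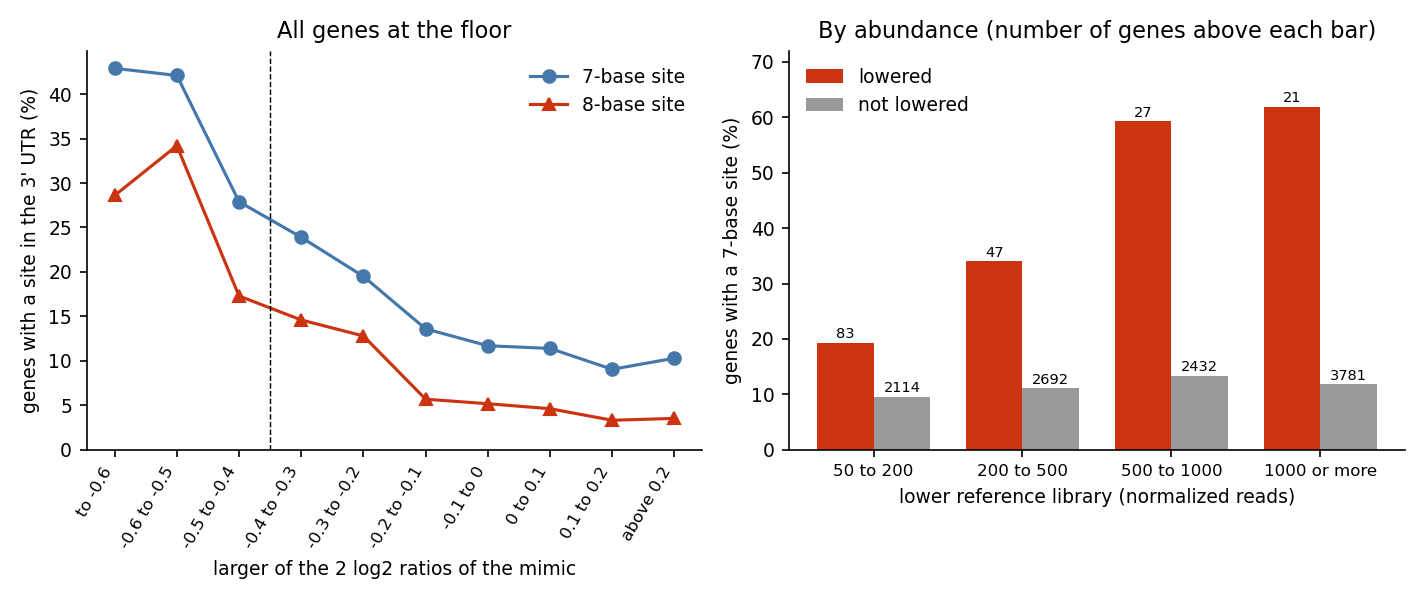
Left, percent of all genes at the floor with a 7-base or 8-base site (vertical axis) by the larger of the mimic's log2 ratios to its references (horizontal axis), with the selection to the left of the dashed line. Right, percent with a 7-base site by the lower of both reference levels in normalized reads, with the number of genes above each bar. The share in lowered genes is 19.3% in the lowest range and 61.9% in the highest.

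The share of lowered genes with a site was larger among abundant genes. The lowered genes were weakly expressed, with a median of 217 normalized reads in the knockout and 224 in the negative control, against 637 and 635 for genes not lowered. Where the lower reference held 50 to 200 normalized reads, 16 of 83 lowered genes, or 19.3%, had a 7-base site. From 200 to 500 it was 34.0% of 47, from 500 to 1000 it was 59.3% of 27, and at 1000 or more it was 61.9% of 21. In genes not lowered the share stayed between 9.56% and 13.4% over these ranges. Weak genes met the rule more often in both directions. Of genes with 50 to 100 normalized reads 5.38% were lowered and 4.64% raised, and of genes with 1000 or more 0.576% were lowered and 0.314% raised. Counting error is larger in weak genes, and its part in the selection was not tested.

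The selecting ratios are given as a description only. Their medians over the 179 genes were -0.57 against the negative control and -0.53 against the knockout, beside -0.003 and 0.01 over all genes at the floor. At or below -0.4 lay 3.72% of genes at the floor in the ratio to the negative control and 4.03% in the ratio to the knockout. The larger ratio lay above -0.5 for 100 of the 179 genes, and 2 genes, Entpd4 and Prr5l, were at least 2-fold lower in both. For 153 genes both exact (Clopper-Pearson) 95% intervals of the ratio, which cover counting error only, lay below 0. These intervals use the counts that selected the genes and are not corrected for the selection. The same holds for the intervals of the mimic's ratios given for single genes below. On TPM, with 1 added to each value, all 179 ratios stayed below 0 in both comparisons, but 97 genes kept both at or below -0.4. The added 1 weighs more on TPM, where weak members held few units. Robo2, for example, held 0.91 TPM in the knockout, 0.85 with the negative control and 0.49 with the mimic. Over all genes at the floor the median ratio to the knockout was 0.04 on TPM. What part each of these had in the lower number was not tested. In the authors' deposited table for negative control and mimic, 155 of the 179 genes were lower at a false discovery rate of at most 0.05, as were 20.2% of all genes at the floor; this is 1 of the contrasts that chose the genes.

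**Figure D3:**
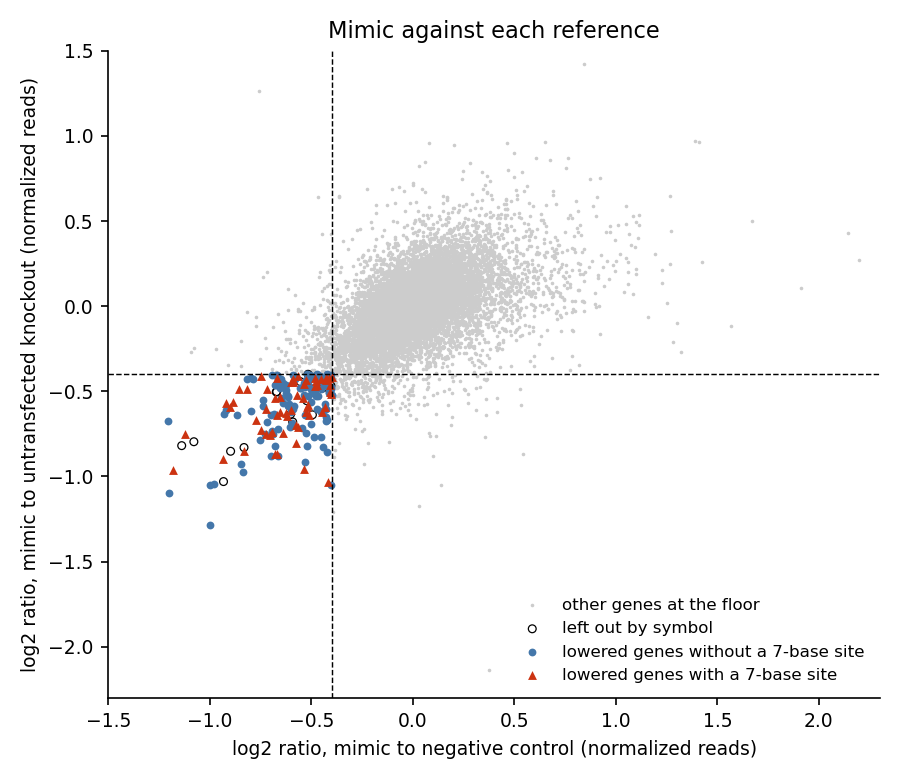
Log2 ratio of the mimic library to the negative control (horizontal axis) and to the untransfected knockout (vertical axis) for genes at the floor, with dashed lines at -0.4. Triangles are the 61 lowered genes with a 7-base site, filled circles those without, open circles the 15 genes left out by symbol. Entpd4 lies outside the axes.

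Just inside the threshold were Ulk1 with ratios of -0.40 and -0.42, Caap1 with -0.40 and -0.52, and Adgrg1 with -0.52 and -0.40, each first to the negative control. Just outside were Crebrf with -0.43 and -0.3996, Bbs4 with -0.58 and -0.399, and Tifab with -0.45 and -0.397. Just above the floor were Tmtc1, Zfp428 and Afap1l1, whose lower reference held 52.6, 52.9 and 52.9 normalized reads. Just below it were Adcy5, Shroom1 and Gnb1l with 49.9, 48.9 and 48.0.

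The lowest mean ratios belonged to Entpd4, Prr5l, Gbp8, Slc22a23, Perp, Fndc4, Afap1l1, Fam160a1, Gmds and Cenpq. Entpd4, a nucleotide-hydrolysing enzyme of internal membranes, held 57.1 normalized reads in wild type, 170 in the knockout, 101 with the negative control and 0 with the mimic. Its near-identical copy Entpd4b held 1221, 1438, 1636 and 1735. The sum of both was 1278, 1608, 1736 and 1735, so the pair was not lower in the mimic: its log2 ratios were -0.001 to the negative control and 0.11 to the knockout. The estimated counts of Entpd4 had decimals, which mark reads shared between genes, and its membership is uncertain for that reason. Estimated counts with decimals also occurred for Cenpq, Acat2, Nat8f3, Loxl2, Arxes2, H1f2, Bloc1s2 and Cers1.

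Prr5l, which binds the mTORC2 kinase complex, held 72.6 normalized reads in wild type, 90.3 in the knockout, 97.0 with the negative control and 41.6 with the mimic. The intervals of its ratios ran from -1.77 to -0.69 against the negative control and from -1.68 to -0.57 against the knockout. Perp, a membrane protein of desmosomes and a target of p53, held 35.3, 99.6, 96.0 and 47.6 in the same order of libraries. Its wild-type level was below that of the mimic. Fndc4, a secreted fibronectin-domain protein, held 164, 70.6, 67.4 and 33.7, and wild type was its highest library. Gbp8, Afap1l1 and Cenpq were as weakly expressed, with 47.6, 32.7 and 69.4 normalized reads in the mimic. None of these 6 genes held the 7-base site TACTTGA, while Prr5l and Perp held the site ACTTGAA. Fam160a1, with a 7-base site, held 232, 139, 180 and 82.3.

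Among the 12 genes with an 8-base site named above were transporters and enzymes. Slc22a23, an orphan member of the organic ion transporter family, held 754 normalized reads in wild type, 335 in the knockout, 391 with the negative control and 172 with the mimic. Its ratio was -1.18 to the negative control (counting interval -1.45 to -0.93) and -0.96 to the knockout (-1.24 to -0.70), and wild type was the highest library. Gmds, which makes the precursor of GDP-fucose, held 502, 435, 447 and 233 in the same order. Acat2, the cytosolic thiolase that starts sterol synthesis, held 1145, 1181, 1036 and 647. For both genes the 3 libraries without the mimic lay close together and the mimic apart. Slc25a16, a mitochondrial carrier, held 475, 505, 490 and 302. Abcg3, a rodent relative of the ABCG transporters, held 342, 531, 664 and 359, with wild type below the mimic.

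Signalling proteins with an 8-base site included kinases and G protein regulators. Stradb, a pseudokinase that activates the kinase LKB1, held 282, 402, 299 and 206 normalized reads in wild type, knockout, negative control and mimic. The negative control was nearer to wild type than to the untransfected knockout, and the mimic was lowest. Frk, a tyrosine kinase related to Src, held 367, 313, 401 and 211. Rgs4, which speeds GTP hydrolysis by G protein alpha subunits, held 217, 76.8, 95.1 and 50.6. Frat2, a GSK3-binding protein, held 58.1, 92.3, 60.03 and 44.6. At these low levels the counting interval of the Frat2 ratio to the negative control, -0.42, ran from -1.01 to 0.14.

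Genes of protein handling were among the more abundant. Rnf149, a membrane ubiquitin ligase, held 2208, 3250, 3297 and 1960 normalized reads in wild type, knockout, negative control and mimic. Its ratios were -0.75 (-0.83 to -0.67) and -0.73 (-0.81 to -0.65), and wild type lay between the mimic and both references. Txndc15, a thioredoxin-domain membrane protein, held 1068, 1267, 1104 and 693. Srp19, a protein of the signal recognition particle, held 599, 736, 709 and 435. The palmitoyltransferase Zdhhc20, with 3 sites, held 2083, 2448, 2663 and 1612. In these 4 genes wild type lay below both references and above the mimic.

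**Figure D4:**
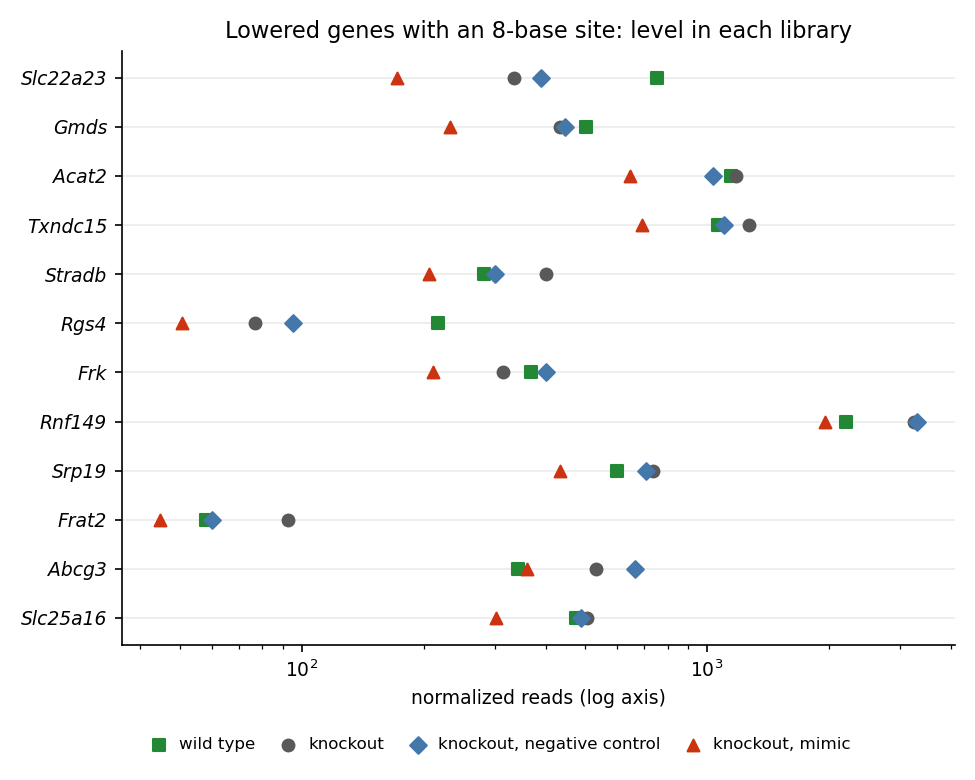
Normalized reads (log axis) in each of the 4 libraries for the 12 lowered genes with an 8-base site and the lowest mean ratio, 1 library per group. The mimic is the lowest of the knockout libraries in every row by selection; the place of wild type varies, from 754 normalized reads in Slc22a23, its highest library, to 342 in Abcg3, its lowest.

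Further genes with an 8-base site included Fbxl19, Zdhhc20, AU040320, Mtx2, Snn, Clec4n, Nhs, Nabp1, Cdk8, Bloc1s2, Pak3, Faim, Gpsm1, Abhd18, Palb2, Ttc13, Trappc4, Nab1, Hectd3, Zfp608, Nus1, Bfar, Slc19a2, Vangl2, Actr6, Vbp1, Llph, Map2 and Ulk1. Among them are the Mediator kinase Cdk8, the vesicle-tethering subunit Trappc4, the BRCA2 partner Palb2, the thiamine transporter Slc19a2, the planar polarity protein Vangl2 and the microtubule protein Map2.

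Of a list of 52 published miR-26a targets 48 were at the floor, and 3 of them, Loxl2 and Ulk1 included, were among the 179 genes. Of all genes at the floor 1.71% met both ratios. Loxl2 held 4544 normalized reads in wild type, 6057 in the knockout, 5949 with the negative control and 3605 with the mimic, and has a 7-base site. Ulk1, the kinase that starts autophagy, held 1271, 917, 907 and 687 in the same order, and has 2 sites of 8 bases. In Ulk1 wild type was the highest library, and in Loxl2 it lay between the mimic and the references.

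The published list as a whole was lower against the negative control than against the knockout. Its median ratios were -0.21 and -0.09. At or below -0.4 were 14 of the 48 genes in the first and 6 in the second, and 5 met both. Over all genes at the floor these shares were 3.72%, 4.03% and 1.71%. Of the 5 genes Plod2 and Acsl3 are left out here by name. The 6 non-members with the lowest mean ratio were Plod2, Adam19, Slc7a11, Acsl3, Il6 and Ccne1. Adam19, a membrane metalloprotease, held 3537 normalized reads in the negative control, 1994 in the knockout and 1657 in the mimic, with ratios of -1.09 and -0.27. Slc7a11 had -0.97 and -0.25, Il6 had -0.64 and -0.32, and Ccne1 had -0.61 and -0.31. These 4 missed the rule through the untransfected knockout. Plod2 had -0.83 and -0.83, and Acsl3 had -0.67 and -0.50. Both comparisons share the mimic library, and the difference between them is the negative control against the knockout. The targets Cdk6 and Lif were higher in the mimic by at least 0.4 in both, as were 0.980% of all genes at the floor.

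The list of cholesterol synthesis was also compared. Of 22 cholesterol synthesis genes at the floor 3 were members: Pmvk, the phosphomevalonate kinase, Fdps, which makes farnesyl diphosphate, and Cyp51, the lanosterol demethylase, where 1.71% of all genes at the floor met both ratios. Pmvk held 266 normalized reads in wild type, 302 in the knockout, 299 with the negative control and 198 with the mimic. Fdps held 2345, 2261, 2120 and 1590, and Cyp51 held 3930, 3464, 3489 and 2574. In these 3 genes the libraries without the mimic lay together above it, and none held a 7-base site. Over the 22 genes the median ratio was -0.17 to the negative control and -0.30 to the knockout, and 18, or 81.8%, were below 0 in both, as were 34.9% of all genes at the floor. Only 1 of the 22 held a 7-base site. Acat2, Tm7sf2, Acss2 and Nus1, named after their values were seen, act in or beside the same pathway. Acat2 and Nus1 hold 8-base sites, and Tm7sf2 and Acss2 hold no match of 6 bases or more.

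The remaining lists added few members. Cdh2 (N-cadherin) came from the integrin and adhesion list and held 3316, 2775, 3087 and 1848 normalized reads in wild type, knockout, negative control and mimic. Cxcl1, a neutrophil chemokine, held 114, 72.6, 53.6 and 39.7. Acacb, the mitochondrial acetyl-CoA carboxylase, held 148, 68.5, 64.6 and 48.6. The counting intervals of Cxcl1 against the negative control and of Acacb against both references included 0. No collagen, contractile, interferon-stimulated or TGF-beta signalling gene of the lists was a member; at 1.71% of all genes at the floor, lists of 18 to 29 such genes are too short for a count of 0 to stand out.

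For description 107 of the 179 genes were grouped by known function after their values were seen. A 7-base site was in 8 of 13 genes of membrane traffic and protein modification, such as Bloc1s2 and Trappc4, and in 7 of 12 signalling kinases, phosphatases and their regulators, such as Cdk8 and Pak3. It was in 4 of 5 transporters and channels and in 5 of 9 ubiquitin ligases and adaptors, such as Bfar and Hectd3. It was in 2 of 10 mitochondrial proteins, Atpaf1 and Mtx2, and in 4 of 14 genes typical of leukocytes, such as Itgal and Clec4n. Matrix, adhesion, guidance and secreted factors had 5 of 11, and chromatin, transcription and DNA repair 4 of 15. Sterol, isoprenoid and fatty acid enzymes had 3 of 10, and G protein-coupled receptors and G protein regulators 2 of 8. Among all lowered genes with a 3' UTR the share was 34.3%, and among genes not lowered 11.6%. The number of genes in each group is small, and the groups were not tested.

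Per transcript length the most abundant members in the mimic library were Rpl22l1 with 367 TPM, the lysosomal membrane protein Glmp with 335, the copper chaperone Cox17 with 210, Fdps with 162 and the linker histone H1f2 with 137. Rpl22l1 and H1f2 belong to families of similar genes, so their counts are less certain, as are those of Gstm1, Gbp8, Gbp9, Ms4a4a, Ms4a4d, Pilrb2, Nat8f3, Arxes2, Msl3l2 and Abcg3. Znrd1as carries an antisense name but is annotated as protein-coding. Without a stated strand its reads cannot be told apart from any of a gene overlapping it on the other strand. The 179 genes summed to 6265 TPM in the negative control, 6030 in the knockout, 4269 in the mimic and 6249 in wild type.

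The wild-type library, which the rule did not use, shows where these genes stand in cells without the knockout. Mature miR-26a was not measured in any library of the gene table, and miR-26b, of the same seed, is encoded at a separate locus. The median log2 ratio of wild type to knockout over the 179 genes was -0.08, beside -0.03 over genes not lowered. It was above 0 for 81 genes, or 45.3%, against 47.0% of genes not lowered. At or below -0.4 were 46 of the 179 genes, or 25.7%, and at or above 0.4 were 43, or 24.0%, where 17.5% and 15.7% of all genes at the floor lay. The members were spread to both sides rather than shifted, and the sets were not matched for abundance. The knockout library took part in the selection, so this ratio is a description.

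Members with a site were no lower in wild type than members without. The median ratio of wild type to knockout was -0.01 for the 61 genes with a 7-base site, -0.07 for the 42 with an 8-base site and -0.12 for the 117 without a 7-base site. Wild type lay above both references in 73 of the 179 genes, between them in 13, between the mimic and both references in 63, and at or below the mimic in 30. Among the 42 genes with an 8-base site these counts were 15, 5, 16 and 6. Among the 11127 other genes at the floor they were 3990, 667, 459 and 6011. The rule sets the mimic below both references in the members only, so the counts of the sets are not directly comparable. On TPM the median over the 179 genes was 0.08, with 0.08 over all genes at the floor, a shift of all genes from -0.03; relative to all genes the members lay close to 0 under both scalings.

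**Figure D5:**
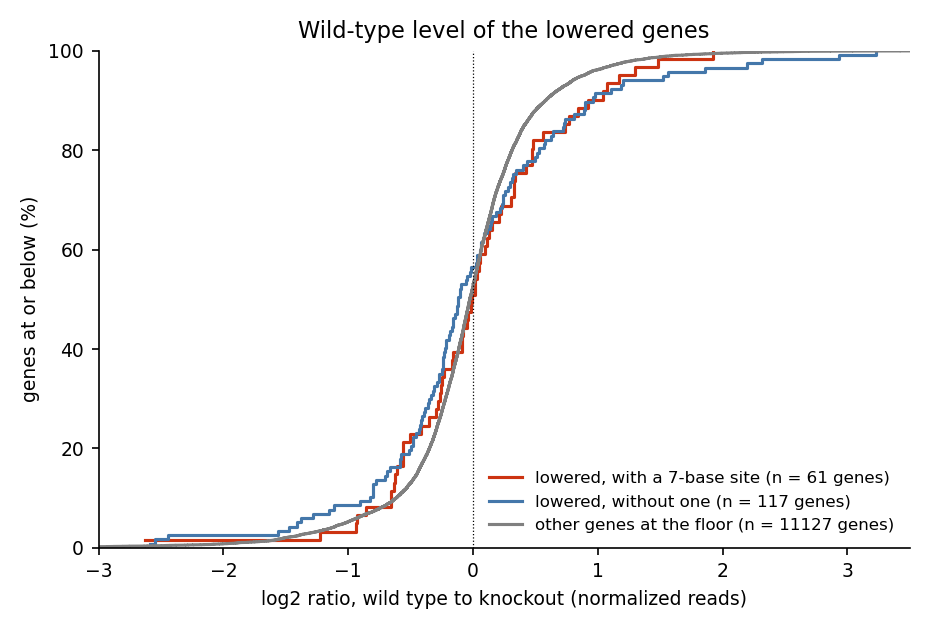
Cumulative percent of genes (vertical axis) at or below each log2 ratio of wild type to knockout (horizontal axis), for 61 lowered genes with a 7-base site, 117 without and 11127 other genes at the floor. The medians are -0.01, -0.12 and -0.03. The lower and upper quartiles are -0.35 and 0.34, -0.41 and 0.32, and -0.28 and 0.24, in the same order. The sets were not matched for abundance.

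Some members differed far more between wild type and knockout than by the threshold of selection. Tmtc1, an endoplasmic reticulum mannosyltransferase, held 562 normalized reads in wild type, 59.1 in the knockout, 52.6 with the negative control and 35.7 with the mimic, with a log2 ratio of wild type to knockout of 3.23 (counting interval 2.85 to 3.67). St8sia2, a polysialyltransferase, held 847, 110, 129 and 70.4, and Nat8f3 held 299, 59.1, 58.2 and 34.7. In these 3 genes wild type was far above every knockout library. Itgal, the alpha chain of the leukocyte integrin LFA-1, held 156, 966, 897 and 576, a ratio of -2.63 (-2.89 to -2.38). Sh2d1b1, an adaptor of lymphoid receptors, held 20.7, 130, 137 and 95.2, and the sorting receptor Sorl1 held 99.6, 586, 695 and 438. Here wild type was far below the mimic.

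Levels of cell type markers moved with this comparison. The median ratio of wild type to knockout was -1.09 over the 11 macrophage markers and 1.00 over the 8 fibroblast markers. Of the 14 members typical of leukocytes 2 were higher in wild type than in the knockout, with a median of -0.57. Of the 11 matrix, adhesion, guidance and secreted factors 9 were higher, with a median of 0.58. These groups were formed after the values were seen, and other groups were also uneven. Of the mitochondrial proteins 0 of 10 were higher, with a median of -0.36. Of the sterol, isoprenoid and fatty acid enzymes 8 of 10 were, with a median of 0.15. The medians of the remaining groups lay between -0.25 and 0.28. In bulk RNA fewer cells of a type and less RNA per cell cannot be told apart, and the part of cell makeup in the genotype ratios was not tested. Between mimic and references the macrophage markers had median ratios of -0.04 and -0.003, and the fibroblast markers 0.15 and -0.03.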

How the data were processed

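RNA of 4 cultures was sequenced, 1 library per group, and the labels define the groups. FastQC, HISAT and Bowtie2 and the builds GRCm38.p6 and mm10 come from the submitters' processing notes; quantifier, annotation and strandedness were not given in the sources used here. Values deposited by the authors are estimated counts, TPM, FPKM (not used) and a normalized signal, which is each estimated count, rounded up, over a size factor of its library. A second deposited table holds log2 ratios of unscaled counts with PoissonDis p-values and false discovery rates, per the file headers. Dates in place of 26 symbols were restored by Entrez identifier.

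Ratios used the normalized signal with a pseudocount of 1. Counting intervals are exact conditional binomial intervals at 95% and cover counting error only. Sites were searched in the longest 3' UTR of each gene (GENCODE M21; found for 15799 genes). With 1 library per group no test was run. The members and lists were chosen with earlier results of these data known. Named genes were the 10 lowest by mean ratio, all with 8-base or several sites, all on a list, the extremes of wild type to knockout, the 5 most abundant by TPM and those beside each threshold; some are not reported here. The rule was run on simulated counts with counting error only, without variation between cultures and with changed genes planted only at high counts. Python 3.11.15 (scipy 1.17.1, pandas 2.3.3, numpy 2.4.6, matplotlib 3.10.9) was used, and for alternative scalings edgeR 4.0.16 and DESeq2 1.42.0 in R 4.3.3.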

Additional observations from a re-analysis of the deposited data

How the results depend on the processing

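The number of members followed the limits of the rule. With TPM in both ratios, 1 added to each value, it was 102, of which 97 were shared with the 179. It was 95 with a floor of 200, 725 without a floor, 79 at a threshold of -0.5 and 388 at -0.3. With edgeR TMM scaling, DESeq2 size factors or a pseudocount of 10 it was 186, 177 and 143, sharing 179, 177 and 143 with the main set, with the left-out symbols kept 194, and 170 without genes whose counts have decimals, an alternative chosen after seeing the data. The percent with a 7-base site was 47.4 with a floor of 200, 15.8 without a floor and 42.3 at a threshold of -0.5, and between 28.8 and 35.9 for the other member sets. It was 23.6 for 8-base sites, 50.6 for any site of 7 or 8 bases (22.2 in genes not lowered) and 36.0 with a site in any annotated transcript (12.3). The median ratio of wild type to knockout was 0.0783 on TPM and between -0.1393 and -0.0001 under the other alternatives; on TPM the median of all genes at the floor was 0.0848. Where no cause is named, the cause was not tested. No paired analysis was possible because each group had 1 library. Depth limits the weak genes most, and 26 members had a counting interval that reached 0 in at least 1 ratio.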

Other observations

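The lists of the G2 and M phases and of S phase held no member. At 1.71% of all genes at the floor, lists of 36 and 33 genes are too short for a count of 0 to stand out. Of the 36 listed genes of the G2 and M phases 34, or 94.4%, were below 0 in both ratios of the mimic, where 34.9% of all genes at the floor were. Their median ratios were -0.19 to the negative control and -0.26 to the knockout. At or below -0.4 in these ratios were 1 and 4 of them, beside 3.72% and 4.03% of all genes at the floor. The 33 listed genes of S phase did not share the low ratios: 10 of them, or 30.3%, were below 0 in both. The median ratios of the S phase list were 0.05 and 0.05. Cenpe, a kinetochore motor, held 624 normalized reads in the knockout, 655 with the negative control and 495 with the mimic, and Cdca3 held 545, 529 and 405. Wild type was far lower, with 250 for Cenpe and 177 for Cdca3. None of the 36 genes held the 7-base miR-26a site TACTTGA, while Birc5 and Cdk1 held the site ACTTGAA. Members with a part in division, chosen after their values were seen, were Cenpq, Spc24, Itgb3bp and Cdkn3, which held neither site. This list was picked out from several after its values were seen, and each ratio rests on 1 library per group.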
